A study of Danio rerio with 19 samples.

Results

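Cell adhesion molecules of 3 large families were followed in sorted islet cells of adult zebrafish: the cadherins with the protocadherins, the adhesion molecules with immunoglobulin domains, and the integrins. Members were taken by gene symbol, as every gene of the count tables whose symbol starts, in any letter case, with cdh and a digit, pcdh, cadm, nectin, ncam, nrcam, l1cam, alcam, cntn and a digit, itga or itgb. The rule uses no measured value and gave 151 of 31901 gene identifiers. Of these, 27 were cadherins, 37 protocadherins of the clustered kind and 21 other protocadherins. The immunoglobulin family gave 11 CADM and nectin genes, 10 genes of the NCAM, L1CAM, NRCAM and ALCAM kind and 8 contactins. There were 22 integrin α and 12 integrin β genes, and 3 members (ITGB1BP1, itgb3bp and ITGBL1) carry an integrin name without being subunits. Of the 151 members, 5 had no counts, 53 had counts but stayed below the mean of 10 normalized counts set for testing, and 93 were tested. Many symbols in the gene name table are human symbols in capitals that several zebrafish genes share, so each gene is given with its Ensembl identifier, and with the zebrafish name used in the study where that has one.

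Classical cadherins bind the same or a related cadherin on the neighbouring cell and are tied to the actin skeleton by catenins, and the mix of cadherins a cell makes is a known basis of cell sorting in tissues. Protocadherins share the cadherin repeats but do not bind catenins, and those of the clustered kind lie in gene arrays in which alternative first exons are joined to shared ones. CADM, nectin, NCAM, L1CAM and contactin proteins carry immunoglobulin domains and are best known from synapses, axons and epithelial contacts, while integrins are pairs of an α and a β subunit that hold the cell to laminin, collagen, tenascin and other matrix proteins. In the mammalian islet, cadherins and NCAM take part in the arrangement of the endocrine cells, and laminin-binding integrins in the contact with the basement membrane.

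All fish carried Tg(sst1.1:eGFP) and Tg(ins:NTR-P2A-mCherry), and were adults of 6 to 10 months, males and females. The sst1.1 promoter drives GFP in sst1.1-expressing cells. The ins promoter drives mCherry with a nitroreductase, an enzyme that turns the prodrug nifurpirinol (NFP) toxic, in insulin-expressing cells. Bihormonal cells (6 libraries), positive for GFP and mCherry, came from fish treated for 18 h with 2.5 µM NFP and kept for 20 days. β-cells (7 libraries, mCherry without GFP) and the GFPhigh and GFPlow cells (3 libraries each, strong or weak GFP without mCherry) came from control fish in 0.16% DMSO, for which no day of collection is given. Ablation and cell type therefore changed together in every comparison with bihormonal cells and cannot be told apart. Each library was made by SMART-Seq2, a method for little RNA, from FACS-sorted cells of the pooled main islets of 2 to 4 fish, so that a library is a pool of animals, and a group is defined by its fluorescence gate.

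Libraries held 5599246 to 18077658 counts. The 3 most abundant genes took 30.7% to 39.3% of the counts in β-cells and GFPlow cells and 38.3% to 63.4% in bihormonal and GFPhigh cells. GFPhigh replicate 2 stood apart, with 15331 genes detected against 18909 and 19249 in the other GFPhigh libraries. Marker sums of the sorted types, in which the hormone genes dominate, followed the gates, but single markers did not all do so. The β list summed to 1956160 to 3434470 normalized counts in β-cells and 197194 to 867019 in bihormonal cells, against at most 11024.7 elsewhere. Its members MNX1 and NKX6-2 averaged 2011 and 1138 in β-cells but 11.4 and 0.345 in bihormonal cells. Of the sst1.1 δ list, hhex averaged 642 in GFPlow, 483 in GFPhigh and 540 in bihormonal cells. The sst1.1 δ list lay between 3034380 and 13867200 normalized counts in bihormonal and between 4626950 and 7529370 in GFPhigh cells, against at most 613594 in GFPlow cells. The sst2 δ list lay between 1437590 and 2109610 in GFPlow cells, against at most 39061.7 elsewhere. GFPlow libraries also held more RNA of the 4 duct markers (3972 to 5097 normalized counts, nearly all ANXA4, against at most 460.0 elsewhere) and, in their median, of the 7 acinar markers matched of 10 (110 to 3546, against at most 763 elsewhere). The α-cell list summed to 18757 to 36634 in GFPlow cells, 9555 to 16737 in β-cells, 106 to 5849 in GFPhigh cells and 5249.8 to 91561 in bihormonal cells. Of the glia and neuron list, plp1b averaged 3709 in bihormonal and 2354 in GFPhigh cells against 287 in β-cells and 1102 in GFPlow cells, while SOX10 averaged under 1 in every group. Mesenchyme markers (8 genes) summed to 11.4 to 31.4 in GFPlow cells and to at most 123 in any library, and endothelial markers (6 genes matched of 7) to at most 44.8. The part of duct, acinar, α-cell or leukocyte RNA in the differences below was not tested.

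A normalized count here is the deposited read count scaled by TMM factors to the mean library, and is not corrected for transcript length, so levels are compared between groups and not between genes. A member is called when edgeR's quasi-likelihood F-test, adjusted by Benjamini-Hochberg over all 14693 genes tested, gives a p under 0.05 and the fitted fold is above 2. In bulk samples, fewer cells of a type and less RNA per cell cannot be told apart, here or in any comparison that follows.

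Across the 4 groups, 68 of the 93 tested members were called, 73.1%, while 32.6% of all tested genes were. A gene made in a single group passes the filter only through that group, so this share describes the members and is not a test of them. Among the 44 members with a mean of at least 100 normalized counts over all libraries, 35 were called. The share of all genes called at that mean is not given here, so this count describes the members only. GFPlow cells held the highest mean of normalized counts for 34 of the 68 called members (50% of them, against 30.8% of all called genes). GFPhigh cells were highest for 19 (27.9%, against 25.2% of all called genes), β-cells for 9 (13.2%, against 25.8%) and bihormonal cells for 6 (8.82%, against 18.2%). All 11 tested cadherins, all 6 CADM and nectin genes and all 5 contactins were called, as were 11 of 12 integrin α genes, 13 of 15 other protocadherins and 6 of 8 genes of the NCAM, L1CAM, NRCAM and ALCAM kind. Of the clustered protocadherins 13 of 30 were called, and of the integrin β genes 3 of 5. The heat map of the named members shows the broad block of genes high in GFPlow cells beside smaller blocks of β-cells and of GFPhigh with bihormonal cells.

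**Figure D1:**
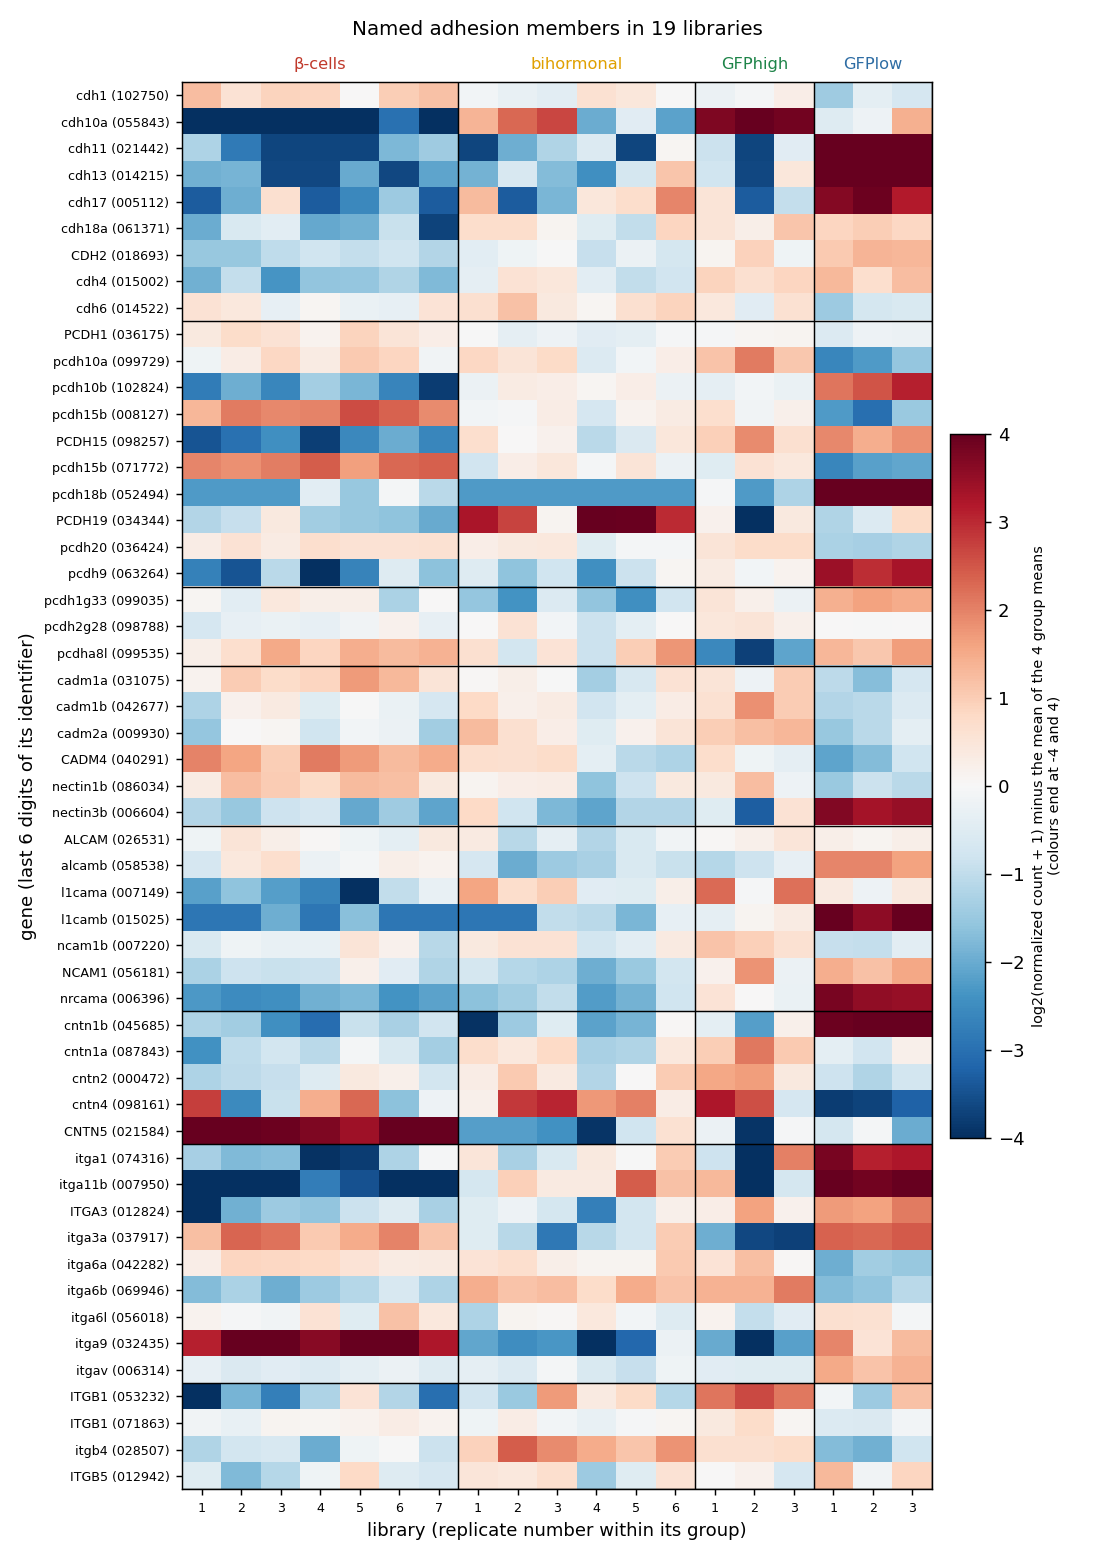
Heat map of the named members (rows, ordered by subfamily, with the last 6 digits of the identifier) in the 19 libraries (columns, by group and replicate number). Colour is log2(normalized count + 1) minus the mean of the 4 group means, ending at -4 and 4. cdh11, pcdh18b and cntn1b are dark red in all 3 GFPlow libraries, CNTN5 and itga9 are red in all 7 β-cell libraries, and itga6b is red in all bihormonal and GFPhigh libraries.

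The members separated the cell types to different extents. Against β-cells, 18 members were higher and 12 lower in bihormonal cells, and 13.2% of all genes were called there (7.39% higher and 5.76% lower). In GFPhigh cells 31 members were higher and 8 lower than in β-cells, with 18.1% of all genes called (10.4% higher, 7.7% lower). In GFPlow cells 34 were higher and 13 lower than in β-cells, with 17.7% of all genes called (9.87% higher, 7.88% lower). Bihormonal cells differed from GFPlow cells in 16 higher and 32 lower members (all genes 16.5%, with 7.87% higher and 8.67% lower), and GFPhigh from GFPlow cells in 19 higher and 20 lower (all genes 15.7%, with 7.86% higher and 7.83% lower). Between bihormonal and GFPhigh cells 3 members were higher and 4 lower (all genes 2.76%, with 1.42% higher and 1.34% lower). The comparisons share groups and are not independent. The median log2 fold change of the 93 members was 0.23 in bihormonal against β-cells, 0.38 in GFPhigh against β-cells and 0.68 in GFPlow against β-cells, while over all genes it was 0.000469, -0.107 and -0.0632. The filter touches these medians in the same way as the counts.

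**Figure D2:**
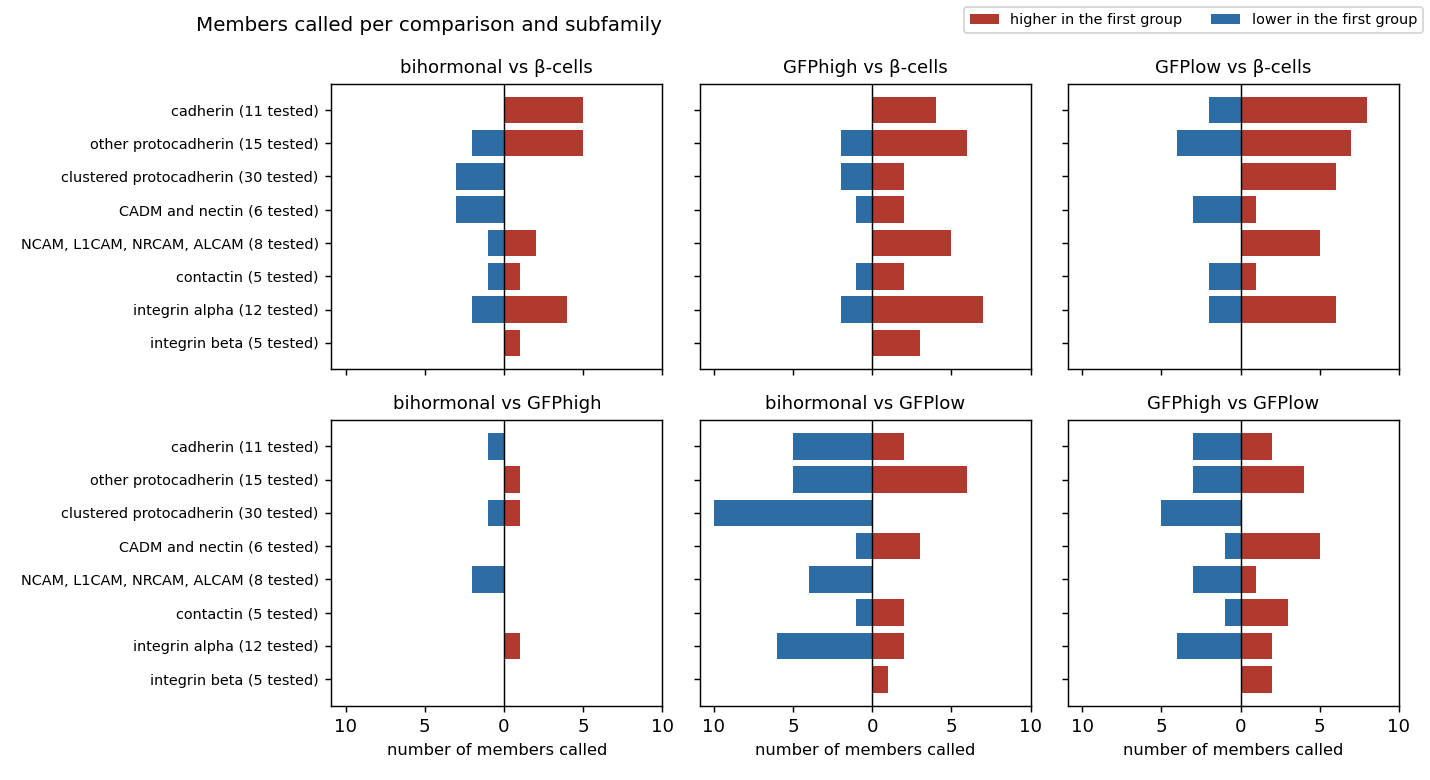
Number of members called in each of the 6 comparisons, by subfamily (the number tested stands in parentheses). Bars to the right count members higher in the group named first and bars to the left members lower in it. Cadherin bars point to the right in all 3 comparisons with β-cells but for 2 members lower in GFPlow cells, and the clustered protocadherin bar of bihormonal against GFPlow cells holds 10 lower members.

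How many members were higher and how many lower depended on the scaling in 5 of the 6 comparisons. With library totals alone in place of TMM factors, the median of all genes moved to -0.64 on the log2 scale in bihormonal against β-cells, -0.50 in GFPhigh against β-cells, -0.74 in bihormonal against GFPlow cells, -0.59 in GFPhigh against GFPlow cells and -0.19 in bihormonal against GFPhigh cells. The calls then read 11 higher and 28 lower, 20 and 14, 8 and 41, 11 and 27, and 0 and 2. In GFPlow against β-cells they stayed at 33 and 12, with a median of 0.09. All members called with TMM factors kept their sign on library totals. GFPlow replicate 1 and GFPhigh replicate 2 set some of the counts: without the former, 38 members were called in bihormonal against GFPlow cells and 39 in GFPlow against β-cells, and without the latter 30 in GFPhigh against β-cells and 37 in GFPhigh against GFPlow cells. File numbers of the libraries fall into 6 runs, called library sets here, which the labels do not explain. In the sets that hold both groups, the called members had the same direction as over all libraries in 30 of 30 and 29 of 30 cases for bihormonal against β-cells (the exception was pcdh1a3), 39 of 39 in both sets for GFPhigh against β-cells, and 47 of 47 for GFPlow against β-cells. The members were called from these same libraries, so this agreement was largely fixed beforehand and is not a separate test of a set effect. Bihormonal and GFPlow cells share no set, nor do GFPhigh and GFPlow cells, so in these comparisons set and group can be separated only through the other groups. A fit with a term for the library set ended the call of 19 of the 67 differences of members tested below, and its value is set beside each of them. Bihormonal replicates 1 to 3 and GFPlow replicate 1 lie in sets without another group, so they do not enter the differences of that fit. Differences that involve these 2 groups then rest on fewer libraries. The part of this in the lost calls was not tested. Of the called members, cdh17 and CADM4 in bihormonal against GFPlow cells changed sign in that fit (log2 fold change -2.95 to 1.62 and 1.5996 to -0.10), and itga1 in GFPhigh against β-cells did without GFPhigh replicate 3 (2.16 to -0.33).

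Of the 11 called cadherins, 7 were highest in GFPlow cells (30.8% of all called genes were). cdh11 (ENSDARG00000021442), a type II cadherin best known from mammalian mesenchyme and bone, held 835, 940.5 and 858 normalized counts in the 3 GFPlow libraries and at most 12.5 in each of the other 16. No other group came near, and the GFPhigh libraries, at 6.05, 0 and 8.42, lay within the range of the bihormonal ones. The log2 fold change of GFPhigh against GFPlow cells was -7.45 (SE 0.89, edgeR adjusted p = 7.92e-06), -8.14 without GFPhigh replicate 3 and -9.04 with the term for the library set. cdh13 (ENSDARG00000014215), T-cadherin, which is held to the membrane by a lipid anchor and binds adiponectin in mammals, followed the same pattern with 586, 344 and 347 in GFPlow cells and at most 25.9 elsewhere. Its log2 fold change in GFPhigh against GFPlow cells was -5.81 (SE 0.92, edgeR adjusted p = 0.000134), and -7.09 without GFPhigh replicate 3, which at 15.8 held more than the other GFPhigh libraries (6.05 and 0). The library set term ended the call (-5.58, edgeR adjusted p = 0.0514, alternatives 2.2e-09 to 0.0514). cdh17 (ENSDARG00000005112), the liver-intestine cadherin of mammals, held 127, 152 and 89.8 in GFPlow cells and at most 38.4 in any other library. All 3 genes had GFPlow libraries above every other library, but they were named for their small p, so this is not a separate result.

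N-cadherin and R-cadherin were present in every group and graded between them. CDH2 (ENSDARG00000018693), N-cadherin of neural and endocrine cells, ranged in β-cells from 355 to 587 normalized counts with a median of 501. Bihormonal cells lay between 543 and 1001 (median 809.1), GFPhigh cells at 1092, 1914 and 902, and GFPlow cells at 2119, 2618 and 2565. Only the GFPlow libraries stood clear of all others. The log2 fold change was 2.34 in GFPlow against β-cells (SE 0.22, edgeR adjusted p = 6.63e-08) and -1.64 in bihormonal against GFPlow cells (SE 0.23, edgeR adjusted p = 2.14e-05). cdh4 (ENSDARG00000015002), R-cadherin, ranged from 66.9 to 179.9 in β-cells (median 115), from 173 to 513.2 in bihormonal cells (median 264), and held 640.3, 535 and 632 in GFPhigh and 854, 553 and 820.0 in GFPlow cells. GFPhigh and GFPlow libraries overlapped, and the bihormonal libraries lay between them and the β-cells, which they touched at the lower end. It was higher in bihormonal than in β-cells (log2 fold change 1.42, SE 0.26, edgeR adjusted p = 0.000317) and in GFPlow than in β-cells (2.66, SE 0.30, edgeR adjusted p = 5.19e-07). The call in bihormonal cells was lost with the library set term (0.95, edgeR adjusted p = 0.12, alternatives 1.26e-06 to 0.12) and, by its fold, with library totals (0.78). cdh18a (ENSDARG00000061371), a type II cadherin, ranged from 8.22 to 87.1 in β-cells and held 168, 138 and 257 in GFPhigh cells, a log2 fold change of 2.03 (SE 0.46, edgeR adjusted p = 0.00308). Its highest mean was in GFPlow cells, at 217, 233 and 211, within the GFPhigh range. Bihormonal cells lay between 58.9 and 215 and overlapped with all other groups.

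E-cadherin and cdh6 had their lowest levels in GFPlow cells. cdh1 (ENSDARG00000102750), E-cadherin of epithelia, ranged from 361 to 836 normalized counts in β-cells (median 665) and from 268 to 549.6 in bihormonal cells (median 343). GFPhigh cells held 301, 336.02 and 432 and GFPlow cells 133, 271 and 222. β-cells and bihormonal cells overlapped, whereas every GFPlow library lay below every β-cell library (log2 fold change -1.64, SE 0.29, edgeR adjusted p = 0.000218). cdh6 (ENSDARG00000014522), another type II cadherin, was between 315 and 673 in bihormonal cells (median 465) and at 109, 185 and 197 in GFPlow cells, a log2 fold change of 1.55 (SE 0.31, edgeR adjusted p = 0.000929). It lost the call with the library set term (1.02, edgeR adjusted p = 0.378, alternatives 1.13e-05 to 0.378) and with library totals (0.81, edgeR adjusted p = 0.0907). β-cells (238 to 450.5) and GFPhigh cells (407, 218 and 457) overlapped with bihormonal cells.

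cdh10a (ENSDARG00000055843), a type II cadherin known from the nervous system, had its highest levels in GFPhigh cells. The GFPhigh libraries held 1674, 2323 and 1825 normalized counts and the GFPlow libraries 87, 109.6 and 339.4. In β-cells it ranged from 0.866 to 15.07 with a median of 4.75. Every other group thus stood above the β-cells, by a log2 fold change of 8.39 in GFPhigh cells (SE 0.85, edgeR adjusted p = 3.16e-07) and of 5.76 in bihormonal cells (SE 0.77, edgeR adjusted p = 8.48e-06). The bihormonal libraries were split. Replicates 1 to 3, which form a library set of their own, held 322, 618 and 799, and replicates 4 to 6 held 30.7, 91.1 and 27.5. In a fit with a term for the library set, where replicates 1 to 3 do not enter the difference, the log2 fold change from β-cells was 2.48 (edgeR adjusted p = 0.0267, the highest over all alternatives, of which DESeq2 gave the lowest, 1.04e-13).

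**Figure D3:**
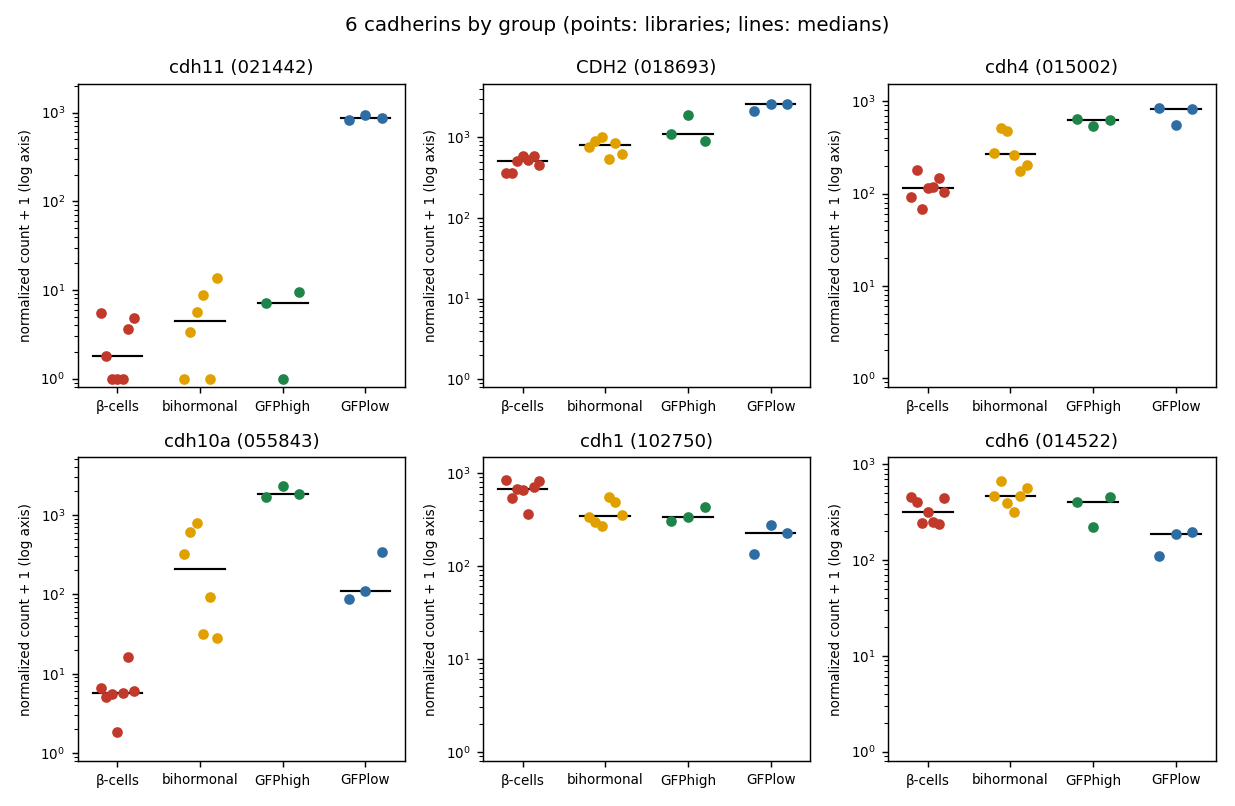
Normalized counts plus 1 (log axis) of 6 cadherins in the 19 libraries (points), by group, with the median of each group as a line. cdh11 is near 0 outside GFPlow cells, CDH2 and cdh4 rise from β-cells over bihormonal and GFPhigh to GFPlow cells in their medians, and the bihormonal libraries of cdh10a fall into 3 high and 3 low ones.

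Non-clustered protocadherins were called in each direction. pcdh9 (ENSDARG00000063264) held 1551, 1119 and 1435 normalized counts in GFPlow cells, 184, 133 and 160.0 in GFPhigh cells, 25.6 to 153 in bihormonal cells and 7.8 to 102 in β-cells. GFPlow libraries exceeded all others (log2 fold change of GFPhigh against GFPlow cells -3.10, SE 0.67, edgeR adjusted p = 0.00229), though the call was lost with the library set term (-2.55, edgeR adjusted p = 0.144, alternatives 2.28e-05 to 0.144). pcdh18b (ENSDARG00000052494), a non-clustered protocadherin, held 158, 117 and 151 in GFPlow cells and had no count in any of the 6 bihormonal libraries. Set against a floor of 3 counts over the bihormonal group, GFPlow cells were at least 245-fold higher. Against GFPhigh cells, at 3.63, 0 and 1.05, the log2 fold change was -6.42 (SE 1.02, edgeR adjusted p = 0.000351), -7.72 without GFPhigh replicate 1 and -10.32 with the library set term. pcdh10b (ENSDARG00000102824) formed 3 steps: β-cells at 0.632 to 7.8, bihormonal cells at 18.4 to 27.9 together with GFPhigh cells at 16.9, 20 and 17.9, and GFPlow cells at 100.2, 129 and 194. The steps did not overlap, with a log2 fold change from β-cells of 2.59 in bihormonal cells (SE 0.38, edgeR adjusted p = 2.5e-05) and of 5.18 in GFPlow cells (SE 0.41, edgeR adjusted p = 5.75e-09).

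Its paralog pcdh10a (ENSDARG00000099729) ran the other way. It held 8719.5, 16904 and 8289.9 normalized counts in GFPhigh cells, 2690.1 to 7056 in bihormonal cells (median 5180.1), 3484 to 8201 in β-cells (median 4982) and 642, 825 and 1343 in GFPlow cells. β-cells and bihormonal cells overlapped over most of their range, and GFPlow cells lay below every other library. The log2 fold change of GFPhigh against GFPlow cells was 3.59 (SE 0.44, edgeR adjusted p = 9.9e-06). pcdh20 (ENSDARG00000036424) was even across β-cells (1237 to 1598, median 1521) and GFPhigh cells (1462, 1686 and 1697), somewhat lower in bihormonal cells (719 to 1359.7, median 1092) and lowest in GFPlow cells, at 423, 401 and 442. GFPlow against β-cells gave a log2 fold change of -1.79 (SE 0.20, edgeR adjusted p = 5.81e-07). PCDH1 (ENSDARG00000036175) ranged from 1425 to 2393 in β-cells and from 931 to 1271 in bihormonal cells without overlap, but its log2 fold change of -0.77 (SE 0.14, edgeR adjusted p = 0.000424) was below the fold set for a call. The other gene listed as PCDH1 (ENSDARG00000062720), given here after its values were seen, went the other way. It ranged from 1.83 to 7.98 in β-cells and from 17.5 to 116 in bihormonal cells, and held 36.3, 31.8 and 13.7 in GFPhigh and 38.6, 53.3 and 39.9 in GFPlow cells.

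Protocadherin 15, which in the hair cell of the ear forms the lower part of the tip link, was present as 3 identifiers that did not move together. ENSDARG00000008127, which the study calls pcdh15b, ranged from 745 to 1828 normalized counts in β-cells (median 1181) and from 188 to 373 in bihormonal cells (median 308). It held 471, 269 and 346 in GFPhigh and 61.6, 35.9 and 107 in GFPlow cells. ENSDARG00000071772, which carries pcdh15b in the name table, ranged from 313 to 541 in β-cells and from 58.9 to 142 in bihormonal cells, and held 71.4, 149 and 136 in GFPhigh and 15.7, 21.3 and 22.8 in GFPlow cells. In each case β-cells stood above, and GFPlow cells below, all other libraries. The log2 fold changes from β-cells were close: -2.05 (SE 0.24, edgeR adjusted p = 2.22e-06) and -2.03 (SE 0.23, edgeR adjusted p = 8.44e-07) in bihormonal cells, and -4.22 (SE 0.37, edgeR adjusted p = 2.3e-08) and -4.44 (SE 0.36, edgeR adjusted p = 5.94e-09) in GFPlow cells. The remaining gene, PCDH15 (ENSDARG00000098257), was lowest in β-cells (17.3 to 61.2), higher in bihormonal cells (117 to 389, median 263) and highest in GFPhigh (472, 910.2 and 381) and GFPlow cells (936, 674 and 879.9), whose ranges overlapped. Its log2 fold change from β-cells was 2.81 in bihormonal cells (SE 0.31, edgeR adjusted p = 7.59e-07) and 4.00 in GFPhigh cells (SE 0.35, edgeR adjusted p = 3.92e-08). Reads shared between these loci were left as the authors' counting assigned them.

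PCDH19 (ENSDARG00000034344), a partner of N-cadherin in zebrafish neural cells and an epilepsy gene in humans, was a member with its highest levels in bihormonal cells. These held 285, 193, 31.2, 740.4, 460 and 234 normalized counts in replicates 1 to 6. β-cells ranged from 6.32 to 38.5 (median 10.4), and GFPhigh cells held 32.7, 0 and 37.9 and GFPlow cells 12.1, 19.4 and 49.9. Except for replicate 3, each bihormonal library exceeded every library of the other groups. Against β-cells the log2 fold change was 4.50 (SE 0.66, edgeR adjusted p = 2.67e-05).

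The clustered protocadherins varied less. Of the 13 called, 11 had their highest level in GFPlow cells, 1 (pcdh1g3) in β-cells and 1 (pcdh2ab6) in GFPhigh cells. Over all called genes these shares were 30.8%, 25.8% and 25.2%. In bihormonal against GFPlow cells, 10 of the 30 tested were lower, while over all genes 8.67% were. pcdh2g28 (ENSDARG00000098788), of the highest mean count in the clustered kind, was not called, with 762 to 2085 normalized counts in bihormonal cells, 879.6 to 1550.4 in β-cells, 1904, 1981 and 1586 in GFPhigh and 1402, 1366 and 1403 in GFPlow cells. pcdh1g33 (ENSDARG00000099035) ranged from 4.44 to 19.3 in bihormonal cells and held 78.5, 89.2 and 82.7 in GFPlow cells, a log2 fold change of -2.92 (SE 0.42, edgeR adjusted p = 2.4e-05) that was not called with the library set term (-2.67, edgeR adjusted p = 0.0945, alternatives 2.25e-10 to 0.0945). The genes of an array are near copies of each other and may share reads, so values of single genes are uncertain.

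Among the CADM and nectin genes, whose products link cells in pairs of like or different partners, 5 of 6 were higher and 1 was lower in GFPhigh than in GFPlow cells, against 7.86% and 7.83% of all genes. cadm2a (ENSDARG00000009930), a synaptic adhesion molecule, held 3836, 4476 and 4963 normalized counts in GFPhigh cells, 688, 920.1 and 1504 in GFPlow cells, 1391 to 4731 in bihormonal cells (median 2564) and 676 to 2069 in β-cells (median 1662). GFPhigh and GFPlow libraries did not overlap (log2 fold change 2.09, SE 0.44, edgeR adjusted p = 0.00189), and the bihormonal libraries reached into the ranges of all 3 other groups. cadm1b (ENSDARG00000042677) followed with 340.1, 802 and 448 in GFPhigh and 99, 106 and 151 in GFPlow cells (log2 fold change 2.16, SE 0.42, edgeR adjusted p = 0.0009). CADM1 is known in the mammalian islet, where it links endocrine cells to each other.

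Of the remaining genes, CADM4 set β-cells apart from all other groups and nectin3b GFPlow cells, while cadm1a and nectin1b set neither apart. cadm1a (ENSDARG00000031075) ranged from 171 to 508 normalized counts in β-cells and held 74.9, 47.5 and 98.4 in GFPlow cells (log2 fold change -2.07, SE 0.41, edgeR adjusted p = 0.000663). nectin1b (ENSDARG00000086034), whose relatives bind the adaptor afadin, ranged from 175 to 338 in β-cells and held 49.5, 76.6 and 65.6 in GFPlow cells (log2 fold change -2.06, SE 0.41, edgeR adjusted p = 0.00063). For both, bihormonal cells (60.2 to 231 and 44.8 to 184) overlapped with β-cells and with GFPlow cells. GFPhigh cells overlapped with β-cells, at 225, 134 and 320 for cadm1a and at 183, 329 and 120 for nectin1b. CADM4 (ENSDARG00000040291), which lines myelinating cells in mammals, ranged from 101 to 214 in β-cells and from 20.9 to 84.4 in bihormonal cells without overlap, a log2 fold change of -1.54 (SE 0.34, edgeR adjusted p = 0.00247), and of -2.67 with the library set term. nectin3b (ENSDARG00000006604) was the gene with the opposite sign, at 127, 97.9 and 108 in GFPlow cells and at most 16.2 in any other library. Its log2 fold change in GFPhigh against GFPlow cells was -4.03 (SE 0.87, edgeR adjusted p = 0.00217), and -5.15 without GFPhigh replicate 3. With the library set term it was -3.59 and not called (edgeR adjusted p = 0.171, alternatives 1.05e-05 to 0.171).

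Of the neural immunoglobulin adhesion molecules, nrcama (ENSDARG00000006396), a binder of ankyrin at axons, had the smallest p of all members in the comparison of the 4 groups (edgeR adjusted p = 8.93e-13). GFPlow cells held 2704, 2272 and 2148 normalized counts, GFPhigh cells 282, 193 and 160.0, bihormonal cells 39.7 to 109 (median 66.6) and β-cells 32.6 to 54.9 (median 38.2). GFPlow and GFPhigh libraries formed separate levels above the others, and bihormonal and β-cell libraries overlapped. The log2 fold change of GFPlow against β-cells was 5.85 (SE 0.26, edgeR adjusted p = 2.06e-12) and that of GFPhigh against GFPlow cells -3.49 (SE 0.33, edgeR adjusted p = 9.86e-07). alcamb (ENSDARG00000058538), a homophilic adhesion molecule of axons and leukocytes, held 17238, 17276 and 13577 in GFPlow cells. It ranged from 2765 to 7118 in β-cells (median 4839) and from 1110.0 to 2903 in bihormonal cells (median 2093), and held 2001, 2487 and 3541 in GFPhigh cells. GFPlow cells exceeded all others by a log2 fold change of 1.73 over β-cells (SE 0.28, edgeR adjusted p = 5.96e-05), and bihormonal cells were lower than β-cells (-1.20, SE 0.24, edgeR adjusted p = 0.000923) and than GFPlow cells (-2.93, SE 0.29, edgeR adjusted p = 2.56e-07). The library set term ended the difference from β-cells (-0.70, edgeR adjusted p = 0.277, alternatives 6.45e-06 to 0.277) and left -1.94 from GFPlow cells. Its paralog ALCAM (ENSDARG00000026531) was not called, with 817 to 2401 in bihormonal cells, 1429.9 to 2665 in β-cells, 1932, 2139 and 2595 in GFPhigh and 2200.4, 2022 and 2193 in GFPlow cells.

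The NCAM and L1CAM paralogs differed in their patterns. ncam1b (ENSDARG00000007220) held 1878, 1644 and 1285 normalized counts in GFPhigh cells and 442, 433 and 627 in GFPlow cells, with 514 to 1274 in bihormonal and 395 to 1210.1 in β-cells. GFPhigh libraries were above all others (log2 fold change from GFPlow cells 1.68, SE 0.37, edgeR adjusted p = 0.00261). That call was lost with the library set term (1.31, edgeR adjusted p = 0.11, alternatives 0.000139 to 0.11) and with library totals (1.11, edgeR adjusted p = 0.0944). NCAM1 (ENSDARG00000056181), the other NCAM1 gene, was instead high in GFPlow cells (797, 656 and 854) and ranged from 119 to 335.6 in β-cells (log2 fold change 2.08, SE 0.35, edgeR adjusted p = 0.000104). GFPhigh cells overlapped both, at 324, 1019.9 and 246. l1cama (ENSDARG00000007149), of axon growth, held 766, 156 and 732 in GFPhigh cells and ranged from 5.42 to 131 in β-cells (log2 fold change 3.40, SE 0.57, edgeR adjusted p = 0.000178, and 4.08 with the library set term), with bihormonal cells at 114 to 479. l1camb (ENSDARG00000015025) held 174, 88.2 and 179.7 in GFPlow cells and at most 8.42 in any other library. In GFPhigh against GFPlow cells its log2 fold change was -4.41 (SE 0.77, edgeR adjusted p = 0.000346), and with the library set term -4.08 without a call (edgeR adjusted p = 0.346, alternatives 3.08e-09 to 0.346). With 3 counts in all β-cell libraries together, GFPlow cells stood 402-fold above β-cells (95% counting interval 136 to 1957, for counting error only).

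Contactins, immunoglobulin proteins on a lipid anchor that act in axons and at nodes, again gave paralogs with different patterns. cntn1b (ENSDARG00000045685) held 237, 250.1 and 275 normalized counts in GFPlow cells and at most 16.8 elsewhere (GFPhigh against GFPlow cells, log2 fold change -4.63, SE 0.78, edgeR adjusted p = 0.000247, -5.24 without GFPhigh replicate 3 and -5.43 with the library set term). cntn1a (ENSDARG00000087843) held 129.5, 281 and 134 in GFPhigh cells and ranged from 11.2 to 61 in β-cells (log2 fold change 2.40, SE 0.44, edgeR adjusted p = 0.000418), with GFPlow cells at 49.5, 37.8 and 74.2. cntn2 (ENSDARG00000000472) held 274, 297 and 123 in GFPhigh and 51.9, 39.8 and 55.6 in GFPlow cells, a log2 fold change of 2.24 (SE 0.52, edgeR adjusted p = 0.00385). Its call was lost with the library set term (1.17, edgeR adjusted p = 0.36, alternatives 0.000239 to 0.36) and with library totals (1.64, edgeR adjusted p = 0.0595). So the copy high in GFPlow cells is cntn1b, and GFPhigh cells had the highest mean for cntn1a and cntn2. For cntn1a, bihormonal cells lay between 25.6 and 114, below every GFPhigh library. For cntn2, bihormonal cells (41.0 to 192.7) overlapped with GFPhigh cells. β-cells ranged there from 39.3 to 122.7, just below the lowest GFPhigh library at 123.2. CNTN5 (ENSDARG00000021584) was a β-cell gene in these libraries, with 161 to 561 in β-cells (median 248), 0 to 22.5 in bihormonal cells, 12.1, 0 and 13.7 in GFPhigh and 8.45, 13.6 and 2.85 in GFPlow cells. Bihormonal and β-cell libraries were far apart (log2 fold change -5.41, SE 0.63, edgeR adjusted p = 1.65e-06, -6.59 without bihormonal replicate 6 and -4.71 with the library set term). cntn4 (ENSDARG00000098161) varied widely within groups, from 9.77 to 430.3 in β-cells, from 71.6 to 528 in bihormonal cells and over 603, 375 and 38.9 in GFPhigh cells. Only its low level in GFPlow cells (3.62, 3.88 and 5.7) was clear of the others, with a log2 fold change of bihormonal against GFPlow cells of 5.90 (SE 1.42, edgeR adjusted p = 0.00438). The library set term reduced it to 2.33 and ended the call (edgeR adjusted p = 0.452, alternatives 1.12e-06 to 0.452).

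**Figure D4:**
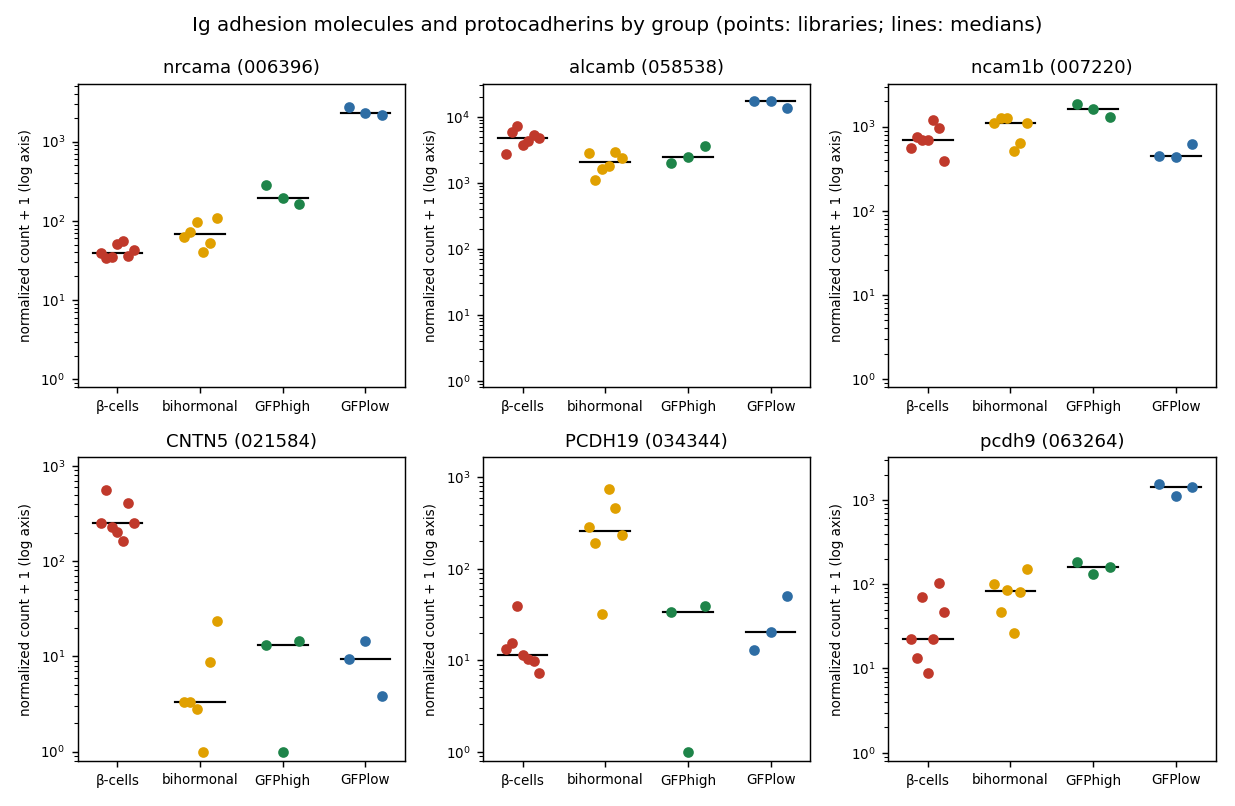
Normalized counts plus 1 (log axis) of 4 immunoglobulin adhesion molecules and 2 protocadherins in the 19 libraries (points), by group, with group medians as lines. nrcama, alcamb and pcdh9 are highest in all 3 GFPlow libraries, ncam1b in the GFPhigh libraries and CNTN5 in the β-cell libraries, and 5 of 6 bihormonal libraries lead for PCDH19.

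Integrin α genes were called in all 6 comparisons. Of the 11 called genes, 5 were highest in GFPhigh cells and 5 in GFPlow cells, against 25.2% and 30.8% of all called genes. itga6b (ENSDARG00000069946), a laminin receptor subunit, ranged from 2521 to 4233 normalized counts in bihormonal cells (median 3447) and held 3932, 3929.7 and 6389 in GFPhigh cells. β-cells ranged from 384 to 967 (median 623), and GFPlow cells held 448, 499 and 706. Bihormonal and GFPhigh libraries shared a high level, and β-cells and GFPlow cells a low one, with a gap between them. The log2 fold change from β-cells was 2.52 in bihormonal (SE 0.21, edgeR adjusted p = 1.59e-08) and 2.96 in GFPhigh cells (SE 0.24, edgeR adjusted p = 1.48e-08), and that of GFPhigh against GFPlow cells was 3.11 (SE 0.32, edgeR adjusted p = 2.5e-06). Its paralog itga6a (ENSDARG00000042282) did not separate bihormonal (359 to 684), β- (403 to 601) and GFPhigh cells (490.2, 766 and 346), and was low in GFPlow cells, at 84.5, 125 and 116 (bihormonal against GFPlow cells, log2 fold change 2.11, SE 0.28, edgeR adjusted p = 9.86e-06). Another gene of the name, itga6l (ENSDARG00000056018), was not called, with all groups between 48.5 and 263.

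itga9 (ENSDARG00000032435), whose product binds tenascin C in mammals, was the α gene highest in β-cells. It ranged from 161 to 545 normalized counts there (median 311) and from 0 to 15 in bihormonal cells (median 2.54), and held 3.63, 0 and 3.16 in GFPhigh and 71.3, 26.2 and 44.2 in GFPlow cells. GFPlow cells formed a middle level without overlap on either side. The log2 fold change from β-cells was -6.07 in bihormonal (SE 0.56, edgeR adjusted p = 5.71e-08, and -7.27 without bihormonal replicate 6) and -2.77 in GFPlow cells (SE 0.59, edgeR adjusted p = 0.00117). With the library set term these were -5.08 and -3.77.

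Of the α genes for collagen and other matrix proteins, itga11b, itga1 and itgav were highest in GFPlow cells, while itga2.1, itga2.3 and ITGA4 had their highest mean in GFPhigh cells. itga2.3 (ENSDARG00000086838), for example, held 31.5, 126 and 63.2 normalized counts in GFPhigh and 47.1, 41.7 and 51.3 in GFPlow cells, which overlapped. itga11b (ENSDARG00000007950), a collagen receptor subunit, held 578, 269 and 359 normalized counts there, 10.4 to 98.8 in bihormonal cells, 44.8, 0 and 10.5 in GFPhigh cells and 3 counts in all β-cell libraries together. GFPlow cells stood 1122-fold above β-cells (95% counting interval 383 to 5449), and bihormonal were lower than GFPlow cells by a log2 fold change of -3.38 (SE 0.64, edgeR adjusted p = 0.000468). With the library set term the latter was -4.29 and not called (edgeR adjusted p = 0.674, alternatives 5.12e-05 to 0.674). itga1 (ENSDARG00000074316), another collagen receptor subunit, held 593, 367 and 398 in GFPlow cells and 16.3 to 84.3 in bihormonal cells (log2 fold change -3.24, SE 0.78, edgeR adjusted p = 0.00421), with GFPhigh cells spread over 23, 0 and 169. It too was not called with the library set term (-3.45, edgeR adjusted p = 0.0561, alternatives 4.62e-05 to 0.0561). itgav (ENSDARG00000006314), whose product takes many matrix proteins as ligands, was even in β-cells (70.8 to 88.6), bihormonal cells (55.5 to 100.0) and GFPhigh cells (76.3, 74.3 and 74.7). Only GFPlow cells were higher, at 304, 232 and 279.5 (against β-cells, log2 fold change 1.80, SE 0.19, edgeR adjusted p = 2.51e-07).

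The integrin α3 genes, laminin receptors like α6, split. ITGA3 (ENSDARG00000012824) held 215, 202 and 277 normalized counts in GFPlow cells, 77.5, 200.4 and 72.6 in GFPhigh cells, 8.97 to 75.1 in bihormonal cells and 2.25 to 45.2 in β-cells. GFPlow cells were above all other libraries (against β-cells, log2 fold change 3.24, SE 0.50, edgeR adjusted p = 3.42e-05). itga3a (ENSDARG00000037917) was high in GFPlow (139, 134 and 149.7) and in β-cells (55.4 to 136, median 75.2), low in bihormonal cells (2.75 to 54.3, median 13.6) and lowest in GFPhigh cells (6.05, 1.18 and 1.05). Bihormonal replicate 6, at 54.3, came close to the lowest β-cell library, and the log2 fold change from β-cells of -2.16 (SE 0.45, edgeR adjusted p = 0.00138) was -2.88 without it. The library set term gave -1.24 and no call (edgeR adjusted p = 0.192, alternatives 1.39e-05 to 0.192).

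**Figure D5:**
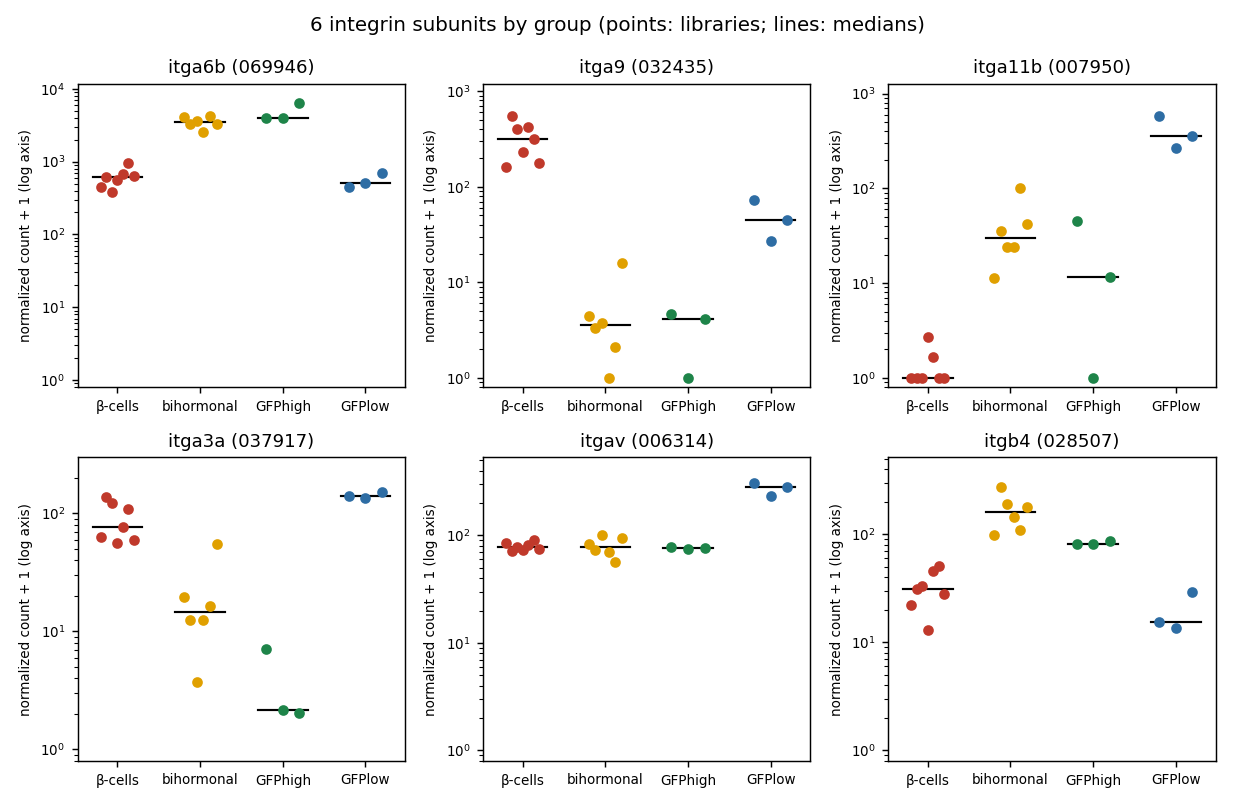
Normalized counts plus 1 (log axis) of 6 integrin subunit genes in the 19 libraries (points), by group, with group medians as lines. itga6b is high in bihormonal and GFPhigh cells, itga9 in β-cells, and itga11b and itgav in GFPlow cells. itgb4 is highest in bihormonal cells and next in GFPhigh cells, while itga3a is high in β-cells and GFPlow cells alike.

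Of the 5 integrin β genes tested, 1 was higher in bihormonal than in β-cells (7.39% of all genes were) and 3 were higher in GFPhigh than in β-cells (10.4% of all genes). itgb4 (ENSDARG00000028507), the partner of α6 in hemidesmosomes, was the gene called in bihormonal against β-cells. It ranged from 97 to 276 normalized counts there (median 160.2) and from 12.1 to 50.5 in β-cells, and held 79.9, 80.2 and 85.3 in GFPhigh and 14.5, 12.6 and 28.5 in GFPlow cells. Bihormonal libraries exceeded all others (against β-cells, log2 fold change 2.40, SE 0.31, edgeR adjusted p = 5.61e-06, and against GFPlow cells 3.17, SE 0.46, edgeR adjusted p = 2.57e-05). The GFPhigh libraries also lay above every β-cell and GFPlow library, and itgb4 was not called between bihormonal and GFPhigh cells. Of the genes listed as ITGB1, the common partner of most α subunits, ENSDARG00000071863 held 518 to 1304 in all libraries and was not called across the groups. ENSDARG00000053232 held 326, 465 and 322 in GFPhigh cells and ranged from 1.12 to 108 in β-cells (log2 fold change 3.60, SE 0.74, edgeR adjusted p = 0.00125, and 4.47 without β-cell replicate 5). Its bihormonal (25.5 to 243) and GFPlow libraries (67.6, 26.2 and 167) overlapped with β-cells. ENSDARG00000104484, given here after its values were seen, held 32.7, 82.5 and 53.7 in GFPhigh cells and 17.3 to 29.7 in β-cells. ITGB5 (ENSDARG00000012942), a partner of αv, was not called, with 35.8 to 308 over all libraries.

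Bihormonal and GFPhigh cells differed in few members, and most of these calls hung on single libraries. Without GFPhigh replicate 2, which stands apart, 1 of the 7 calls was left (that of nrcama) and 13 calls in all genes in place of 405. Lower in bihormonal cells was nrcama (log2 fold change -1.55, SE 0.26, edgeR adjusted p = 0.00735), with 39.7 to 109 against 160.0 to 282 normalized counts. NCAM1 (ENSDARG00000056181) was lower too, with 74.3 to 177 against 324, 1019.9 and 246. Its log2 fold change was -2.02 (SE 0.37, edgeR adjusted p = 0.0109), and -1.12 (edgeR adjusted p = 0.191, in a range from 9.37e-05 to 0.531 over all alternatives) without GFPhigh replicate 2. In both genes every bihormonal library lay below every GFPhigh library. The same held for cdh10a, at 27.5 to 799 against 1674 to 2323, with a log2 fold change of -2.63 (SE 0.71, edgeR adjusted p = 0.0471). The p of cdh10a was past 0.05 in 13 of 19 fits that left out a library, between 0.0506 and 0.214, namely those without GFPhigh replicates 1 or 2, bihormonal replicates 1, 4 or 5, β-cell replicates 1 to 5 or any GFPlow library.

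The remaining calls between bihormonal and GFPhigh cells were PCDH19, pcdha8l, itga3a and pcdh1g33. PCDH19 was higher in bihormonal cells (log2 fold change 3.77, SE 0.91, edgeR adjusted p = 0.0372), though replicate 3, at 31.2, lay among the GFPhigh libraries. Its adjusted p was between 0.0598 and 0.18 in the edgeR fits without GFPhigh replicates 1 or 2 or bihormonal replicates 4 or 5. pcdha8l (ENSDARG00000099535) had 3 counts in all GFPhigh libraries and 6.41 to 44.2 normalized counts in bihormonal cells, a 20.1-fold difference (95% counting interval 6.72 to 98.8, edgeR adjusted p = 0.0164, and 0.0927 without GFPhigh replicate 2). Its fitted log2 fold change moved from 4.05 to 4.85 without GFPhigh replicate 3. β-cells (14.6 to 36.7) and GFPlow cells (32.6, 27.1 and 41.4) lay within the bihormonal range of pcdha8l, so GFPhigh was the group that stood apart. itga3a (log2 fold change 2.81, SE 0.78, edgeR adjusted p = 0.0498) and pcdh1g33 (-1.57, SE 0.43, edgeR adjusted p = 0.049) lay at the threshold. itga3a was not called in 16 of the 19 edgeR fits, with an adjusted p of 0.0508 to 0.245, and pcdh1g33 not in 14, with 0.0509 to 0.202. The fits that kept itga3a left out GFPhigh replicate 1 or bihormonal replicates 2 or 3, with a log2 fold change of 4.00 without the former, and those that kept pcdh1g33 left out GFPhigh replicate 3, bihormonal replicates 2, 3 or 6 or β-cell replicate 6. In the only library set that holds both groups, with 1 library of each, all 7 genes had the same direction. These libraries also entered the calls, so this is not a separate test. With the library set term, cdh10a (-6.05) and pcdha8l (4.86) were still called, and nrcama (-1.05, edgeR adjusted p = 0.278, alternatives 1.35e-05 to 0.278), NCAM1 (-1.14), PCDH19 (3.45), pcdh1g33 (-1.19) and itga3a (3.56) were not.

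Partners of these molecules inside and outside the cell were read from 3 lists. Of the catenins and other cadherin adaptors (16 tested), 8 were called across the groups (32.6% of all genes were). Bihormonal cells had 3 lower than β-cells (all genes 5.76%), and 4 higher and 2 lower than GFPlow cells (all genes 7.87% and 8.67%). In GFPlow cells 2 were higher and 3 lower than in β-cells (all genes 9.87% and 7.88%). The 2 higher ones are given here after their values were seen. JUP (ENSDARG00000059067) averaged 116 normalized counts in GFPlow and 7.06 in β-cells, and PKP3 (ENSDARG00000079438) 218 and 66.1. The 3 with the smallest p were the 3 lower in GFPlow than in β-cells. VCL (ENSDARG00000044968), vinculin, lay between 354 and 601 normalized counts in β-cells and between 44.6 and 67.0 in GFPlow cells (log2 fold change -3.10, edgeR adjusted p = 2.75e-08). AFDN (ENSDARG00000029472), the afadin that binds nectins, lay between 810.4 and 1426 and between 169 and 245 (-2.41, edgeR adjusted p = 1.59e-07), and pkp3a (ENSDARG00000051861), a plakophilin of desmosomes, between 450.1 and 994 and between 41.1 and 137 (-3.22, edgeR adjusted p = 4.7e-07). None of these 3 genes overlapped between β-cells and GFPlow cells, but they were chosen by their p, so this is not a separate result.

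Of the adaptors of integrins, 7 of 16 tested were called across the groups (all genes 32.6%), with 1 lower in bihormonal than in β-cells, near the 5.76% of all genes. PTK2 (ENSDARG00000100456), focal adhesion kinase, lay between 108 and 298 normalized counts in GFPhigh cells and between 20.2 and 59.7 in β-cells (log2 fold change 2.15, edgeR adjusted p = 0.000335). PARVB (ENSDARG00000019117), a parvin, lay between 66.3 and 87.1 in GFPhigh and between 151 and 197 in GFPlow cells (-1.23, edgeR adjusted p = 0.000473). tln2b (ENSDARG00000110973), a talin, lay between 86.3 and 94.1 in GFPlow and between 9.48 and 39.9 in β-cells (2.13, edgeR adjusted p = 0.00083), and lost its call with the library set term (1.79, edgeR adjusted p = 0.091, alternatives 1.87e-05 to 0.091). Other copies, given here after their values were seen, were not called across the groups. ptk2ab (ENSDARG00000004672) averaged 77.4 in GFPhigh and 60.9 in β-cells, and TLN2 (ENSDARG00000017901) 49.6 in GFPlow and 89.5 in β-cells.

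Of the matrix ligands of integrins, 12 of 31 genes in the table were tested and 8 called across the groups (all genes 32.6%). In bihormonal cells 3 were higher and 4 lower than in β-cells (all genes 7.39% and 5.76%), and 5 were lower than in GFPlow cells (all genes 8.67%). LAMB1 (ENSDARG00000101209), a laminin chain, and TNR (ENSDARG00000020771), tenascin R, had their highest means in β-cells, at 267 and 56.2 normalized counts against 11.8 and 3.82 in GFPlow cells, and are given here after their values were seen. LAMB2 (ENSDARG00000002084), another laminin chain, lay between 1577 and 2118 normalized counts in GFPlow cells, 91.6 and 287 in GFPhigh, 31.1 and 93.5 in bihormonal and 7.58 and 42.2 in β-cells (GFPlow against β-cells, log2 fold change 6.45, edgeR adjusted p = 4.31e-10). TNC (ENSDARG00000021948), tenascin C, lay between 1244 and 1971 in GFPlow cells, 210.1 and 627 in β-cells, 143 and 216 in GFPhigh and 20.8 and 101 in bihormonal cells. It was lower in bihormonal than in β-cells (log2 fold change -2.73, edgeR adjusted p = 3.17e-06) and higher in GFPlow than in β-cells (2.18, edgeR adjusted p = 5.55e-05). LAMB2 and TNC had every GFPlow library above every other library, but they were chosen by their p, so this is not a separate result.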

How the data were processed

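RNA of 19 libraries was sequenced as 75 bp single reads. Raw counts per Ensembl gene were deposited by the authors, who used STAR for alignment (GRCz11) and featureCounts (versions not given in the sources used here). The members and gene lists were chosen with earlier results of these data known. Counts were scaled by TMM factors and fitted with edgeR 4.0.16 in R 4.3.3 (quasi-likelihood, 1 mean per group, all libraries). Genes with a mean normalized count under 10 were left out, and calls needed an adjusted p under 0.05 (Benjamini-Hochberg) and a fold above 2. Named genes were, in each subfamily, up to 8 called members with the smallest p and a mean of at least 100 in the highest group and up to 4 with the highest mean, all those called between bihormonal and GFPhigh cells, those the study or an earlier account names, and the 3 smallest p of each partner list; not all are described, and 1 gene of the matrix ligand list is not reported here. Counting intervals (95%, exact) cover counting error only. Standard errors are the log2 fold change over the root of F. Alternatives were DESeq2 1.42.0, its size factors, library totals, no filter, terms for replicate number or library set, only the 2 groups compared, and leaving out each library. The code was tested on simulated data.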

Additional observations from a re-analysis of the deposited data

Results flagged for a closer look

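In 11 of 93 combinations of a gene described above with a group of 6 or 7 libraries, 1 library lay far above the rest. The rule used (Dixon's) flags about 1 in 20 where values are normally distributed. These were counts on their raw scale, some near 0, so that rate is not their chance rate. Groups of 3 were not tested. In bihormonal replicate 6 this held for cdh13 (25.9 normalized counts, the others 1.28 to 6.97), CNTN5 (22.5, the others 0 to 7.77), itga9 (15.03, the others 0 to 3.46) and itga3a (54.3, the others 2.75 to 18.5). In bihormonal cells nectin3b reached 16.2 in replicate 1 (the others 1.28 to 4.64) and itga11b 98.8 in replicate 5 (the others 10.4 to 40.9). In β-cells cdh10a reached 15.07 in replicate 6 (the others 0.866 to 5.62), PCDH19 38.5 in replicate 3 (the others 6.32 to 14.7) and itga1 39.8 in replicate 7 (the others 1.73 to 16.8). itga11b reached 1.73 in β-cell replicate 4 (the others 0 to 0.678), and ITGB1 (ENSDARG00000053232) 108 in β-cell replicate 5 (the others 1.12 to 31.9).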

How the results depend on the processing

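The 67 differences of members and 9 of partner genes given with a test kept their direction under every alternative run (those of the partner genes were added after the data were seen). With a term for the library set, 18 members were called in bihormonal against β-cells (30 without the term), 17 in bihormonal against GFPlow cells (48), 20 in GFPhigh against GFPlow cells (39) and 2 in bihormonal against GFPhigh cells (7). Of the calls made without it, 34 of 47 were kept in GFPlow against β-cells and 31 of 39 in GFPhigh against β-cells, and 2 of 48 in bihormonal against GFPlow cells (cdh17 and CADM4) changed sign. Without GFPhigh replicate 3, 1 of 39 in GFPhigh against β-cells (itga1) did. In bihormonal against GFPhigh cells, library totals left 2, DESeq2 called 13, and edgeR on only the 2 groups compared called 0, with 25 members at an unadjusted p under 0.05 (26 in the fit of all groups and 27 with DESeq2). With the replicate number as a block, edgeR called 0 there, with 24 at an unadjusted p under 0.05. Whether the numbers pair the samples was read from each library's deviations from its group mean, on the log2 scale, correlated between libraries of different groups. Same-numbered libraries correlated at -0.239 to 0.108, with 2 of 21 pairs over 0.1. Libraries of different numbers correlated at -0.417 to 0.440, with 23 of 108 pairs over 0.1. So the same number gave no closer match than another. Pairs within 1 set, of either kind, correlated at -0.146 to 0.440, with 7 of 15 over 0.1. Leaving out each library gave 1 (without GFPhigh replicate 2) to 9 calls in bihormonal against GFPhigh cells, 26 to 35 in bihormonal against β-cells, 38 to 49 in bihormonal against GFPlow cells, 30 to 40 in GFPhigh against β-cells, 31 to 40 in GFPhigh against GFPlow cells, 39 to 49 in GFPlow against β-cells and 62 to 69 across the 4 groups. The cause of these shifts was not tested. Members near 10 normalized counts rest on few reads per library, and the effect of depth on them was not tested.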
